A study of Mus musculus with 7 samples.

Results

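Eicosanoids are signalling lipids made from arachidonic acid, and the genes described here encode the core enzymes that make the prostanoids and the leukotrienes. The 8 genes Alox5, Alox5ap, Ltc4s, Lta4h, Ptgs1, Ptgs2, Ptges and Tbxas1 were taken by gene symbol from a table of 26130 mouse genes. All 8 were in the table and all 8 passed the filter on low counts, which left 13665 genes tested.

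Arachidonic acid is cut from membrane phospholipids by phospholipases, chiefly the cytosolic phospholipase encoded by Pla2g4a, and then enters competing branches. In the cyclooxygenase branch the constitutive enzyme Ptgs1 (COX-1) or the inducible enzyme Ptgs2 (COX-2) makes prostaglandin H, from which Ptges (microsomal prostaglandin E synthase) makes prostaglandin E and Tbxas1 makes thromboxane. In the lipoxygenase branch Alox5, helped by the membrane protein Alox5ap (FLAP), makes leukotriene A, from which Lta4h makes the neutrophil attractant leukotriene B and Ltc4s the cysteinyl leukotrienes. Monocytes and macrophages are a major source of both kinds of lipid, and endotoxin is a classical inducer of Ptgs2 and Ptges in macrophages.

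RNA was sequenced from lung myeloid cells of mice that carried both the Fth1-mScarlet reporter, which reports the ferritin heavy chain gene, and the Lyz2GFP reporter of myeloid cells. All libraries came from Lyz2GFP+CD11b+Ly6C+Ly6G- cells, a gate that takes monocytes and cells derived from them and leaves out neutrophils. The 3 groups were cells with low Fth1-mScarlet from untreated mice (n = 2), cells with low Fth1-mScarlet from mice given lipopolysaccharide (LPS, from the bacterial cell wall; n = 2) and cells with high Fth1-mScarlet from mice given LPS (n = 3). LPS was placed in the trachea, 20 µg in 50 µl, and lungs were taken 3 days later. Untreated cells with high Fth1-mScarlet were not analysed here, so treatment and gate cannot be told apart where LPS Fth1-high cells are set against untreated ones, and all 3 comparisons share groups with one another. The labels do not say whether replicates were separate mice, so each p-value reflects variation among these libraries alone, part of which may be technical.

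Totals ran from 10459703 to 27997007 counts in 6 libraries, and LPS Fth1-low replicate 1 stood apart with 637787. In that library 1 count equalled 1.67 CPM (counts per 1000000, scaled by TMM), and ribosomal RNA and mitochondrial genes took 19.5% of the counts, against 0.705% to 8.42% in the others. The sort was reflected in its markers: Ly6c2 was at 562 CPM or more in each library and Ly6g had 5 counts in all libraries together. Levels summed over 9 macrophage markers were 4943 and 5145 CPM in untreated cells, 2471 and 5077 CPM in LPS Fth1-low cells and 7567 to 10175 CPM in LPS Fth1-high cells. Over 7 nonclassical monocyte markers they were 8581 and 10035, 3926 and 4133, and 1186 to 1479 CPM in the same order. The mast cell genes Tpsb2 and Tpsab1 and the eosinophil gene Prg3 had no count in any library, but other genes of their lists did. Hdc had 1459 counts and Ccr3 17 in all libraries together. The 10 mast cell and basophil markers summed to 8.74 to 27.6 CPM and the 5 eosinophil markers to 0 to 0.796 CPM. In such bulk samples, fewer cells of a type and less RNA per cell cannot be told apart.

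Promoter sequences are given for Ptgs2, Ptges and Alox5, the members with the largest fitted changes below. RefSeq windows on GRCm38.p6, from 250 bases before to 50 bases after the start, were matched for 7 of the 8 members, Alox5ap not among them. The Ptgs2 window was chr1:150099781-150100080 on the plus strand, the Ptges window chr2:30903248-30903547 on the minus strand and the Alox5 window chr6:116461129-116461428 on the minus strand. The Ptgs2 and Alox5 starts were also the GENCODE vM21 gene starts, whereas the Ptges start lay inside the longer GENCODE span. Each is written 5′ to 3′ on the gene's strand, and capitals mark the GC box GGGCGG, the kappa B pattern GGGNNNNNCC and the TGACG core of the cyclic AMP response element on either strand.
Ptgs2: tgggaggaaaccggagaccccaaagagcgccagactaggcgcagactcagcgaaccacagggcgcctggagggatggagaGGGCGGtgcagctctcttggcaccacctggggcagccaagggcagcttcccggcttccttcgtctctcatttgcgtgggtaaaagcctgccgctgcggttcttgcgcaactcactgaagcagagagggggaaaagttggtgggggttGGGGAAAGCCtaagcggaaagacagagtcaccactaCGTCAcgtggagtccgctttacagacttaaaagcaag
Ptges: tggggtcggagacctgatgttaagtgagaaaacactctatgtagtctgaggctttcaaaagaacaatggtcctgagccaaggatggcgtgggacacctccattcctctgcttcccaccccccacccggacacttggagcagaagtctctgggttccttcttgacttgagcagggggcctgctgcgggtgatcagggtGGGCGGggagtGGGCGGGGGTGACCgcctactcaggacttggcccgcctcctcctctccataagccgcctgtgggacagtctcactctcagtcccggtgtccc
Alox5: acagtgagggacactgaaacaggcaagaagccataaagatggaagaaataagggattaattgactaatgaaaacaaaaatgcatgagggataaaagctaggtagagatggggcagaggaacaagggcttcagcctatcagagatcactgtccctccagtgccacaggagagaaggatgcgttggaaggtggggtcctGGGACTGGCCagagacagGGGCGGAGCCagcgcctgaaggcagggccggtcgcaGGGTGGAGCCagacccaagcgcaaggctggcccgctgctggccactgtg
Positions are counted from the start as 1, with no position 0.

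The Ptgs2 window held a kappa B pattern at -23 to -14, a GC box at -170 to -165 and the TGACG core on the reverse strand at 14 to 18, where it overlapped the E-box CACGTG at 17 to 22. The Ptges window held GC boxes at -53 to -48 and -42 to -37, the second overlapping a kappa B pattern at -38 to -29. In the Alox5 window a GC box at -35 to -30 lay within one of its 3 kappa B patterns. Among 32544 mouse promoters of the same length, searched on both strands, 35.9% held a GC box, 51.0% a kappa B pattern and 20.9% the TGACG core. Of the other patterns searched, TATAAA was present in 13.6% of promoters and within these members in Tbxas1, at -11 to -6, and CCAAT was present in 37.4% and within these members in Lta4h. The E-box CANNTG was present in 72.3%, and the full element TGACGTCA was present in 1.80% and in none of the 7 windows. A match describes the sequence and shows neither binding nor a cause of any change.

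Members that passed the test moved in opposite directions in the 2 branches. Ptgs2, Ptges and Tbxas1 of the cyclooxygenase branch were higher in LPS Fth1-high than in untreated Fth1-low cells, and Alox5 and Alox5ap at the head of the lipoxygenase branch were lower. In that comparison 3 of 8 members rose and 2 fell at an adjusted p below 0.05 (edgeR quasi-likelihood test, Benjamini-Hochberg over all genes tested), against 12.4% and 11.9% of all genes tested. In LPS Fth1-low against untreated Fth1-low cells Ptgs2 rose and Alox5 fell, against 2.99% and 0.629% of all genes. Of LPS Fth1-high cells set against LPS Fth1-low cells, 0 members rose and Alox5ap fell, against 3.68% and 4.57% of all genes. For that count of 0, edgeR gave 3 members higher at an unadjusted p below 0.05, a threshold for which no share of all genes is given here. DESeq2 called Ptges and Ptgs2 higher, where it called 634 of all 13665 genes higher. Limma-voom called Ptgs2 higher, where it called 427 of them higher. The median log2 change of the 8 members was 0.93, 0.58 and 0.39 in the 3 comparisons in the order given, beside 0.03, -0.05 and 0.04 over all genes tested.

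**Figure D1:**
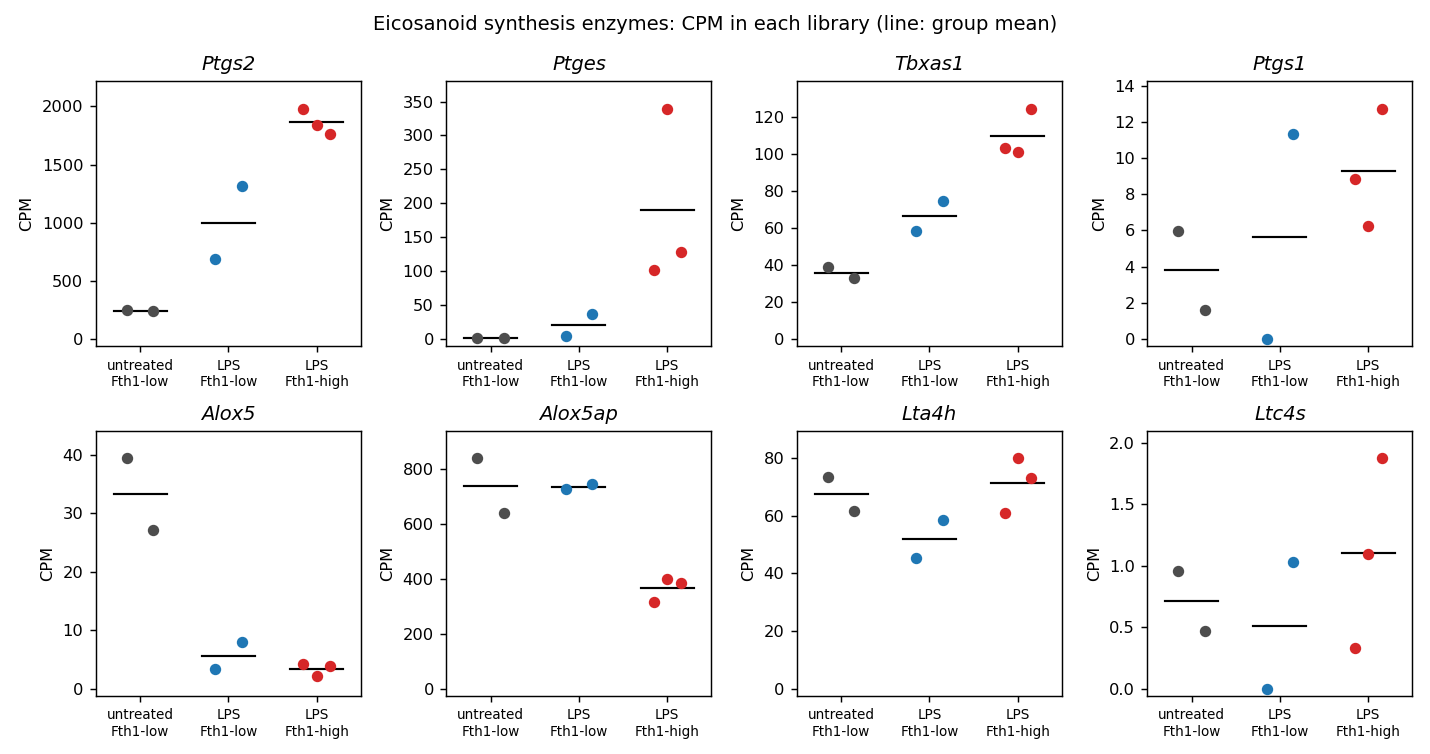
TMM-scaled CPM (vertical axes from 0) of the 8 enzymes in each of the 7 libraries. Points are libraries and lines are group means, over 3 libraries for LPS Fth1-high cells and 2 for either other group. Ptgs2, Ptges and Tbxas1 are lowest in the untreated libraries and highest in the LPS Fth1-high libraries, and Alox5 is highest in the untreated libraries.

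Levels of different genes were compared as CPM per kb of exon (GENCODE vM21 union exon length). In untreated cells Alox5ap was highest at 521 ± 99.0 CPM per kb (SD, n = 2), above 99.6% of all genes tested with a length, and Ptgs2 followed at 53.6 ± 2.08 CPM per kb. Lta4h at 11.1 ± 1.36 and Alox5 at 8.11 ± 2.10 CPM per kb had overlapping ranges of mean ± SD, above Tbxas1 at 3.95 ± 0.449 CPM per kb. Ptgs1, Ltc4s and Ptges came last, each below 1 CPM per kb and with such overlap between neighbours. In LPS Fth1-low cells Alox5ap (519 ± 10.4 CPM per kb) and Ptgs2 (219 ± 97.2 CPM per kb) again led, and from Lta4h downwards each member's range of mean ± SD overlapped that of its neighbour in the order.

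In LPS Fth1-high cells the order had changed. Ptgs2 led at 407 ± 23.7 CPM per kb (SD, n = 3), above Alox5ap at 259 ± 31.6 and Ptges at 48.3 ± 33.1 CPM per kb. Tbxas1 at 12.1 ± 1.43 and Lta4h at 11.7 ± 1.56 CPM per kb had overlapping ranges of mean ± SD. Ptgs1, Ltc4s and Alox5 came last, at 2.39, 1.09 and 0.839 CPM per kb, again with overlap between neighbours. Ptges had thus moved from the lowest to the third place, and Alox5 from the fourth to the last.

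Ptgs2, the inducible cyclooxygenase (chromosome 1, 150100031 to 150108227 on GRCm38), was present at 252 and 239 CPM in untreated cells. It was at 686 and 1316 CPM in LPS Fth1-low cells and at 1981, 1840 and 1767 CPM in LPS Fth1-high cells. The 3 groups did not overlap, and each LPS library exceeded both untreated ones. The fitted rise was 4.10-fold in LPS Fth1-low cells (log2 2.03 ± 0.32 SE, adjusted p = 0.0072) and 7.59-fold in LPS Fth1-high cells (log2 2.92 ± 0.32, adjusted p = 1.6e-04), both against untreated cells. The step from LPS Fth1-low to LPS Fth1-high was 0.89 ± 0.29 on the log2 scale (95% interval 0.24 to 1.53) and missed the threshold in edgeR (adjusted p = 0.10). It passed in DESeq2 (adjusted p = 0.0082), in limma-voom (adjusted p = 0.028) and without LPS Fth1-low replicate 2 (1.45, adjusted p = 0.020), whereas without LPS Fth1-low replicate 1 it was 0.48 (adjusted p = 0.25). The rise in LPS Fth1-low cells lost its call without untreated replicate 1 (2.07, adjusted p = 0.080) or untreated replicate 2 (2.02, adjusted p = 0.10).

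Ptges, the inducible synthase that acts after Ptgs2, showed the largest change of the members. It had 51 and 17 counts in untreated cells (2.12 and 1.58 CPM), 3 and 708 counts in LPS Fth1-low cells (5.02 and 36.4 CPM), and 1544, 8353 and 3621 counts in LPS Fth1-high cells (102, 339 and 128 CPM). The groups did not overlap, but the libraries within each LPS group were spread widely, and the lower LPS Fth1-low value rested on 3 counts. LPS Fth1-high cells were 99.6-fold above untreated cells (log2 6.64 ± 0.88, adjusted p = 0.0015; 5.92 without LPS Fth1-high replicate 2). The other differences missed the threshold: 3.82 ± 0.84 for LPS Fth1-low against untreated cells (adjusted p = 0.061) and 2.82 ± 0.73 between the LPS groups (adjusted p = 0.061). Both depended on LPS Fth1-low replicate 2, without which they were 1.38 and 5.25, and both passed in DESeq2 (adjusted p = 0.015 and 0.012). The span of Ptges overlaps that of the gene model Gm13400 on the same strand. Their exons were not compared, and whether reads of Gm13400 were counted for Ptges was not tested.

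Tbxas1, thromboxane synthase, was at 38.8 and 33.0 CPM in untreated cells, 58.6 and 74.8 CPM in LPS Fth1-low cells and 103, 101 and 125 CPM in LPS Fth1-high cells. The groups again did not overlap and stood in the same order as for Ptgs2. The gene rose 3.05-fold in LPS Fth1-high against untreated cells (log2 1.61 ± 0.21, adjusted p = 5.2e-04), and this call held under each of the alternatives. The intermediate steps, 0.93 ± 0.23 to LPS Fth1-low cells (adjusted p = 0.066; 0.014 in DESeq2) and 0.68 ± 0.21 from there to LPS Fth1-high cells (adjusted p = 0.091), missed the threshold. Tbxas1 spans 38875404 to 39084585 on chromosome 6 and overlaps Hipk2 on the opposite strand, and the sources used here do not give the strand counted. The macrophage marker sum given above was also highest in LPS Fth1-high cells, although not higher in LPS Fth1-low than in untreated cells. Its markers differed in their order of groups. C1qa, C1qb, C1qc and Mertk rose from untreated to LPS Fth1-low to LPS Fth1-high cells without overlap, as Ptgs2, Ptges and Tbxas1 did. C1qc was at 2.29 and 2.89, 73.7 and 181, and 394 to 643 CPM in that order. Csf1r, Apoe, Cd68 and Mrc1 were lower in both LPS Fth1-low libraries than in either untreated library. Adgre1 overlapped between these groups. The part of macrophages in the Ptgs2, Ptges and Tbxas1 values was not tested.

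Ptgs1, the constitutive cyclooxygenase, was scarce: 6.0 and 1.58 CPM in untreated cells, 0 and 11.3 CPM in LPS Fth1-low cells and 8.82, 6.26 and 12.7 CPM in LPS Fth1-high cells. The count of 0 came from the shallow library, where 3 counts, the limit that a 0 allows, equal 5.02 CPM. No comparison passed the threshold, with 1.06 ± 0.81 for LPS Fth1-low and 1.25 ± 0.73 for LPS Fth1-high cells against untreated cells (adjusted p = 0.67 and 0.26; 95% interval of the second -0.40 to 2.91). These changes were 2.36 and 2.54 without untreated replicate 1, the library with the higher Ptgs1 level of its pair, and 0.48 and 0.64 without untreated replicate 2, and neither passed. Ptgs1 is also known from platelets, and 11 platelet and megakaryocyte markers summed to 25.4 and 7.83 CPM in untreated cells, 5.02 and 12.3 CPM in LPS Fth1-low cells and 9.02, 7.92 and 18.1 CPM in LPS Fth1-high cells. Within each group the order of the libraries was the same for this sum as for Ptgs1. It was also the same for the mast cell and basophil marker sum and for the epithelial marker sum. The order does not tell these cell types apart, and their part in the Ptgs1 values was not tested. Per kb, Ptgs2 exceeded Ptgs1 by 35.7 and 128 times in untreated cells, 98.6 times in LPS Fth1-low replicate 2 and 190, 249 and 118 times in LPS Fth1-high cells.

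Alox5, which makes leukotriene A, moved the other way (chromosome 6, 116410077 to 116461178). It was at 39.4 and 27.2 CPM in untreated cells, 3.35 and 8.02 CPM in LPS Fth1-low cells and 4.18, 2.19 and 3.96 CPM in LPS Fth1-high cells. Both untreated libraries lay above all 5 LPS libraries, while the LPS groups overlapped, and the lower LPS Fth1-low value rested on 2 counts. Alox5 was 9.72-fold lower in LPS Fth1-high than in untreated cells (log2 -3.28 ± 0.35, adjusted p = 1.4e-04), a call that held under every alternative run. In LPS Fth1-low cells it was 4.73-fold lower (log2 -2.24 ± 0.43, adjusted p = 0.020), and between the LPS groups the change was -1.04 ± 0.39 (adjusted p = 0.15). The LPS Fth1-low call was lost in limma-voom (adjusted p = 0.074) and without untreated replicate 1 (0.15), untreated replicate 2 (0.059), LPS Fth1-low replicate 1 (0.076) or LPS Fth1-low replicate 2 (0.067, log2 -3.33). The change between the LPS groups was 0.04 without LPS Fth1-low replicate 2.

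Marker sums of other cells were set beside Alox5. Besides the nonclassical monocyte markers given above, 6 dendritic cell markers summed to 104 and 103 CPM in untreated cells, 70.3 and 71.8 CPM in LPS Fth1-low cells and 11.2 to 17.3 CPM in LPS Fth1-high cells, and all 6 had counts in every library but the shallow one. The 10 neutrophil markers summed to 412 and 449, 656 and 698, and 375 to 408 CPM in the same order, and the 11 alveolar macrophage markers to 2008 and 1824, 3482 and 6139, and 927 to 2222 CPM. Markers within a list differed in their order of groups. Cd209a of the dendritic cell list was at 49.5 and 57.4 CPM in untreated and 3.35 and 4.32 CPM in LPS Fth1-low cells. Ccr7, Xcr1 and Clec9a were higher in both LPS Fth1-low libraries than in either untreated library. Chil3 made up most of the alveolar macrophage sum. Ear2 of that list was at 447 and 257, 109 and 89.0, and 4.39 to 10.9 CPM in the same order of groups. Abcg1 was highest in LPS Fth1-high cells. The part of any of these cells in the Alox5 values was not tested.

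Alox5ap, the partner protein of Alox5, followed a different pattern. It was at 840 and 641 CPM in untreated cells and 727 and 747 CPM in LPS Fth1-low cells, and at 317, 401 and 386 CPM in LPS Fth1-high cells. The untreated and LPS Fth1-low libraries overlapped, and all 3 LPS Fth1-high libraries lay below them. The gene was 2.01-fold lower in LPS Fth1-high than in untreated cells (log2 -1.01 ± 0.21, adjusted p = 0.0075) and 2.00-fold lower than in LPS Fth1-low cells (log2 -1.0 ± 0.21, adjusted p = 0.020). The difference between LPS Fth1-low and untreated cells was -0.01 ± 0.24, with a 95% interval of -0.54 to 0.53. Without untreated replicate 1 the first call was lost (-0.80, adjusted p = 0.093). The second was lost without LPS Fth1-low replicate 2 or any of LPS Fth1-high replicates 1, 2 and 3 (adjusted p = 0.056, 0.062, 0.054 and 0.071), with changes of -0.91 to -1.09.

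The enzymes that act on leukotriene A did not pass the threshold in any comparison. Lta4h was at 73.5 and 61.8 CPM in untreated cells, 45.2 and 58.5 CPM in LPS Fth1-low cells and 61.1, 79.9 and 73.1 CPM in LPS Fth1-high cells. Its change in LPS Fth1-high against untreated cells was 0.08 ± 0.20, and the 95% interval of -0.38 to 0.53 leaves out changes as large as those of Alox5 and Alox5ap. Ltc4s had 23 and 5 counts in untreated cells, 0 and 20 in LPS Fth1-low cells and 5, 27 and 53 in LPS Fth1-high cells. At those counts its interval in the same comparison ran from -1.35 to 2.57, and changes within it were not detectable at this depth.

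**Figure D2:**
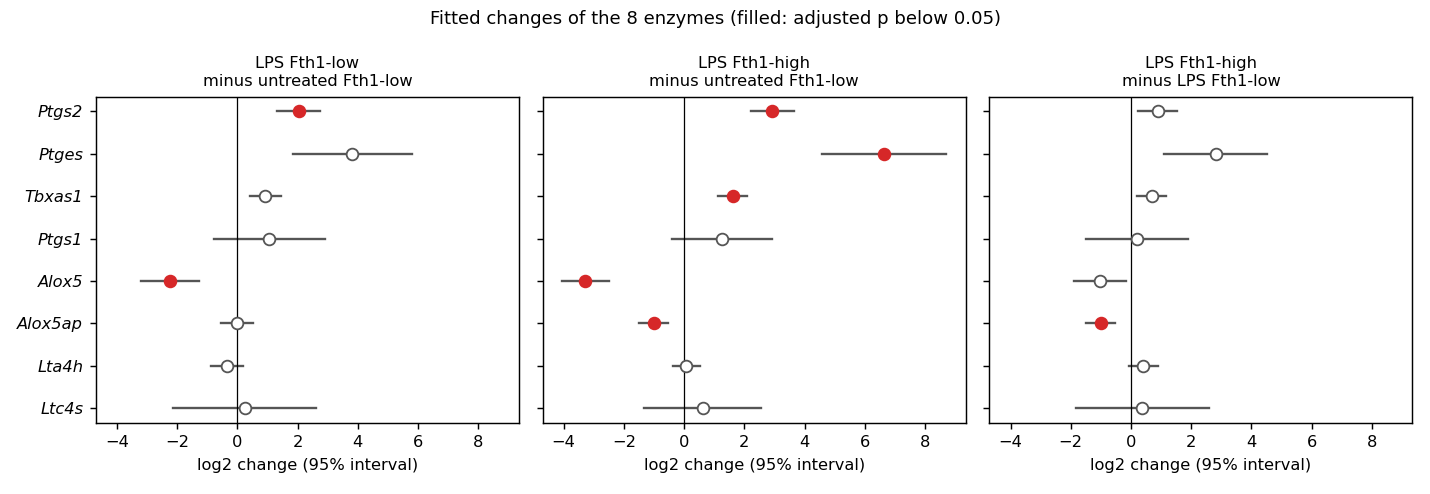
Fitted log2 change (horizontal axis) of each of the 8 enzymes in the 3 comparisons, with its 95% interval as a bar. Filled points have an adjusted p below 0.05 (edgeR). Ptgs2, Ptges and Tbxas1 lie right of 0 in each panel, Alox5 lies left of 0 in each, and Alox5ap lies at 0 between LPS Fth1-low and untreated cells and at about -1 in the panels with LPS Fth1-high cells.

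Ratios within a library set the branches against each other without a scaling between libraries. Per kb of exon, Ptgs2 exceeded Alox5 by 5.74 and 7.87 times in untreated cells, by 184 and 147 times in LPS Fth1-low cells and by 425, 752 and 400 times in LPS Fth1-high cells. The 3 groups did not overlap in this ratio, although the value of 184 rested on 2 counts of Alox5. Alox5ap exceeded Alox5 by 61.6 and 68.1 times in untreated cells and by 219 to 627 times in the 5 LPS libraries. Within the cyclooxygenase branch, Ptges was 0.127 and 0.111 times the level of Tbxas1 per kb in untreated cells, 0.198 and 1.13 times in LPS Fth1-low cells and 2.30, 7.75 and 2.38 times in LPS Fth1-high cells. The terminal synthase with the higher level per kb was therefore Tbxas1 in the untreated libraries and Ptges in the LPS Fth1-high libraries. This order rests on union exon lengths of 3931 bases for Ptges and 9094 bases for Tbxas1. Without division by length, Ptges and Tbxas1 were at 102 and 103 CPM in LPS Fth1-high replicate 1. They were at 339 and 101 CPM in replicate 2 and at 128 and 125 CPM in replicate 3.

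Beyond the 8 members, 78 other genes of eicosanoid metabolism and signalling were followed in 6 lists, of which 56 were tested. In LPS Fth1-high against untreated Fth1-low cells 15 of the 56 rose and 9 fell, against 12.4% and 11.9% of all genes tested, and the median log2 change was 0.29 beside 0.03 over all genes. In LPS Fth1-low against untreated cells 6 rose and 1 fell (2.99% and 0.629% of all genes; median 0.07 beside -0.05), and in LPS Fth1-high against LPS Fth1-low cells 4 rose and 3 fell (3.68% and 4.57% of all genes; median -0.01 beside 0.04).

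**Figure D3:**
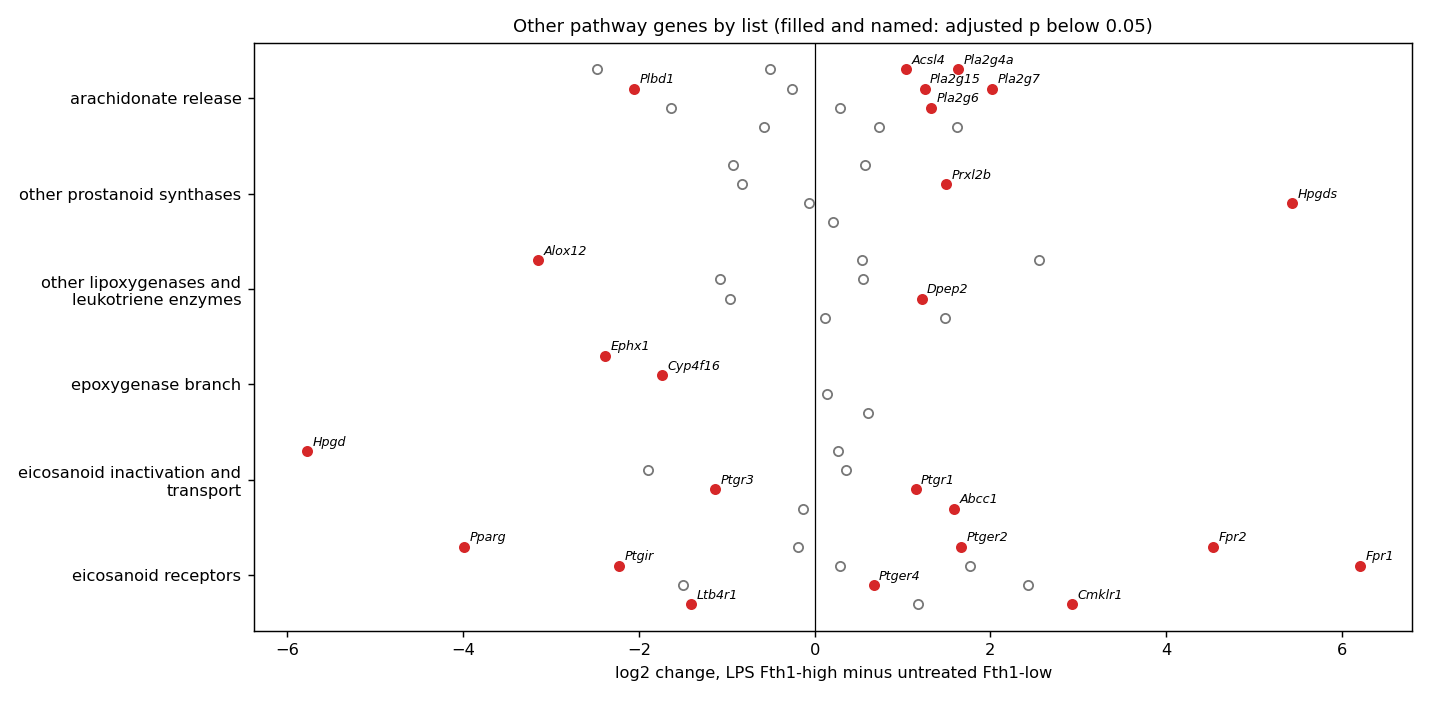
Fitted log2 change of the 56 other pathway genes in LPS Fth1-high minus untreated Fth1-low cells (horizontal axis), by list. Filled, named points have an adjusted p below 0.05 (edgeR), and the vertical offset within a list only separates points. The largest rises are Fpr1 and Hpgds and the largest fall is Hpgd.

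The list drawn as arachidonate release holds phospholipases and other lipases, and also Acsl4, Lpcat3 and Mboat7, which activate arachidonic acid or return it to phospholipids. Of its 14 tested genes, 5 rose (Pla2g4a, Pla2g6, Pla2g7, Pla2g15 and Acsl4) and 1 fell in LPS Fth1-high against untreated cells, against 12.4% and 11.9% of all genes tested. Pla2g4a, cytosolic phospholipase A2, was at 29.6 and 32.1 CPM in untreated cells, 61.9 and 81.5 CPM in LPS Fth1-low cells and 98.6, 105 and 82.4 CPM in LPS Fth1-high cells. It rose in both LPS groups, by 1.26 ± 0.23 (adjusted p = 0.017) and 1.63 ± 0.21 (adjusted p = 4.9e-04) on the log2 scale. Pla2g7, which inactivates platelet-activating factor, rose by 2.02 ± 0.38 and the lysosomal phospholipase Pla2g15 by 1.25 ± 0.24 in LPS Fth1-high cells (adjusted p = 0.0040 and 0.0048). Plbd1, a phospholipase B-like protein, fell from 1252 ± 30.7 to 302 ± 35.3 CPM (log2 -2.05 ± 0.25, adjusted p = 3.6e-04), and also fell between the LPS groups (-1.24 ± 0.25, adjusted p = 0.016). The Pla2g4a rise in LPS Fth1-low cells lost its call without untreated replicate 1 (adjusted p = 0.15), untreated replicate 2 (0.12) and LPS Fth1-low replicate 2 (0.085) in turn, and the Plbd1 fall between the LPS groups without LPS Fth1-high replicate 2 (0.061), LPS Fth1-high replicate 3 (0.063) or LPS Fth1-low replicate 2 (-0.79, 0.068). In LPS Fth1-high cells the Pla2g7 call was lost without untreated replicate 2 (0.056) and the Pla2g15 call without untreated replicate 1 (0.051).

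Of the 7 other prostanoid synthases tested, 2 rose in LPS Fth1-high against untreated cells and 0 fell, against the same 12.4% and 11.9% of all genes. Hpgds, the prostaglandin D synthase of blood cells, had 4 and 5 counts in untreated cells (0.167 and 0.466 CPM). In LPS Fth1-low cells it had 4 counts in the shallow library and 70 in the other (6.70 and 3.60 CPM). The LPS Fth1-high libraries had Hpgds at 7.5, 13.7 and 15.9 CPM. It rose by 3.90 ± 0.67 (adjusted p = 0.012) and 5.43 ± 0.62 (adjusted p = 2.1e-04) on the log2 scale. The first call was lost in limma-voom (adjusted p = 0.15), in a fit of those 2 groups only (0.052), and with LPS Fth1-low replicate 2 (4.54, 0.071) or untreated replicate 1 (3.14, 0.12) left out. Ptges2 and Ptges3, the other synthases of prostaglandin E, changed by 0.20 ± 0.30 and 0.58 ± 0.26 (adjusted p = 0.67 and 0.15). Prxl2b, a prostaglandin F synthase, rose by 1.5 ± 0.30 (adjusted p = 0.0056), a call lost without untreated replicate 2 (1.2, 0.059).

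In the list of eicosanoid inactivation and transport, 2 of 8 genes rose and 2 fell in LPS Fth1-high against untreated cells, where 12.4% and 11.9% of all genes did. Hpgd, the dehydrogenase that inactivates prostaglandins, was at 283 and 254 CPM in untreated cells, 20.1 and 63.2 CPM in LPS Fth1-low cells and 6.37, 0.610 and 7.74 CPM in LPS Fth1-high cells. The groups did not overlap, in the reverse order of Ptgs2, Ptges and Tbxas1. The fall from untreated to LPS Fth1-high cells was -5.78 ± 0.95 on the log2 scale (adjusted p = 0.0071), while the intermediate steps of -2.50 ± 1.00 and -3.28 ± 0.91 did not pass (adjusted p = 0.36 and 0.095). The nonclassical monocyte and dendritic cell marker sums fell in the same order of groups, and their part in the Hpgd values was not tested. Abcc1, a transporter that exports leukotriene C, was at 41.7 and 60.2 CPM in untreated cells, 45.2 and 50.3 CPM in LPS Fth1-low cells and 165, 155 and 140 CPM in LPS Fth1-high cells. Its 3 LPS Fth1-high libraries lay above all others, and it rose by 1.59 ± 0.22 against untreated (adjusted p = 7.2e-04) and by 1.66 ± 0.24 against LPS Fth1-low cells (adjusted p = 0.0029), calls that held under each alternative. Ptgr1, a reductase that inactivates prostaglandins and leukotriene B, rose by 1.15 ± 0.27 (adjusted p = 0.013), and Ptgr3, a reductase listed as Zadh2 in the table, fell (log2 -1.13 ± 0.26, adjusted p = 0.011). Without LPS Fth1-high replicate 3 (1.03, 0.054) or untreated replicate 2 (0.96, 0.12), Ptgr1 missed the threshold.

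Among other lipoxygenases and leukotriene enzymes, 1 of 9 rose and 1 fell in LPS Fth1-high against untreated cells, near the 12.4% and 11.9% of all genes. Dpep2, a dipeptidase that makes leukotriene E, rose by 1.22 ± 0.31 (adjusted p = 0.019), a call lost without untreated replicate 1 (0.099), untreated replicate 2 (0.12) or LPS Fth1-high replicate 2 (0.95, 0.055). Alox12, the platelet lipoxygenase, fell from 72 and 9 counts to 3, 2 and 10 (log2 -3.15 ± 0.89, adjusted p = 0.030). That call was lost in DESeq2 (adjusted p = 0.069) and without untreated replicate 1 (-1.94, 0.37) or any of LPS Fth1-high replicates 1, 2 and 3 (0.059, 0.093 and 0.052). The platelet marker sum given beside Ptgs1 was also highest in untreated replicate 1. So were the epithelial, endothelial and mast cell and basophil marker sums, at 688, 276 and 27.6 CPM there. The part of any of these cells in the Alox12 values was not tested. Ggt5, which makes leukotriene D, fell between the LPS groups from 7.80 ± 1.56 to 2.35 ± 0.268 CPM (log2 -1.80 ± 0.39, adjusted p = 0.021), but not without LPS Fth1-low replicate 2 (-1.5, 0.23), LPS Fth1-high replicate 2 (0.083) or LPS Fth1-high replicate 3 (0.10). In the epoxygenase list 2 of 4 genes fell in LPS Fth1-high against untreated cells (11.9% of all genes). Cyp4f16, a cytochrome P450 of a family that oxidises fatty acids, fell from 157 ± 8.97 to 47.1 ± 4.63 CPM (log2 -1.74 ± 0.18, adjusted p = 1.3e-04) under each alternative. Ephx1, an epoxide hydrolase, fell as well (log2 -2.38 ± 0.56, adjusted p = 0.013), but not without untreated replicate 1 (-1.61, 0.20), where 5 epithelial markers summed to 688 CPM against 2.89 CPM in untreated replicate 2. Their part in the Ephx1 values was not tested.

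**Figure D4:**
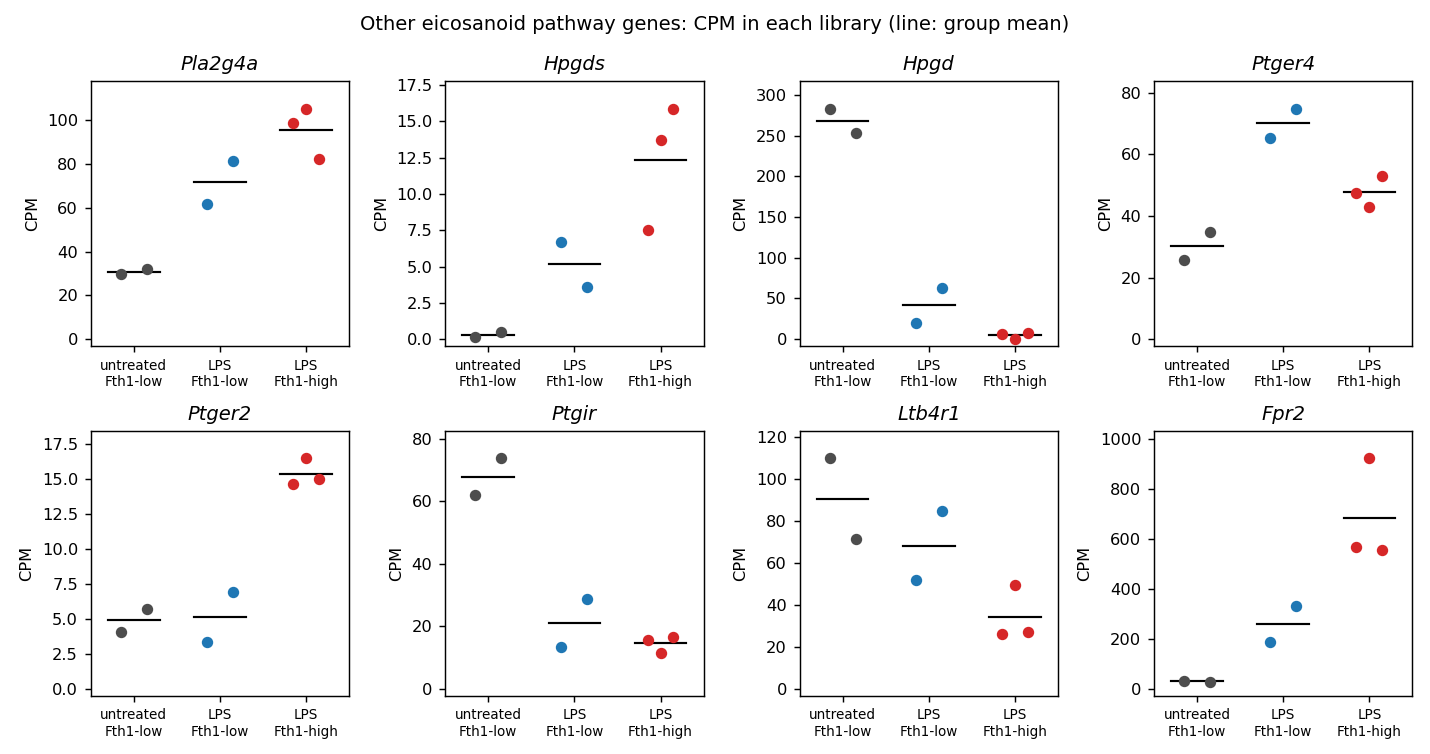
TMM-scaled CPM (vertical axes from 0) of 8 other pathway genes in each library, with points for libraries and lines for group means. Pla2g4a, Hpgds and Fpr2 are lowest in the untreated libraries, Hpgd and Ptgir are highest there, and Ptger4 is highest in the LPS Fth1-low libraries.

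Of 14 receptors for eicosanoids and related mediators, 5 rose and 3 fell in LPS Fth1-high against untreated cells, against 12.4% and 11.9% of all genes. The receptors of prostaglandin E differed among themselves. Ptger4 was at 25.6 and 34.7 CPM in untreated cells, 65.3 and 74.8 CPM in LPS Fth1-low cells and 47.4, 43.0 and 53.1 CPM in LPS Fth1-high cells, so that both LPS Fth1-low libraries lay above all others. Ptger2 was at 4.08 and 5.69 CPM in untreated cells and 3.35 and 6.89 CPM in LPS Fth1-low cells, and at 14.6, 16.5 and 15.0 CPM in LPS Fth1-high cells, above all others. Ptger4 rose in LPS Fth1-low cells by 1.24 ± 0.23 (adjusted p = 0.018) and in LPS Fth1-high cells by 0.67 ± 0.21 (adjusted p = 0.040), and Ptger2 rose in LPS Fth1-high cells by 1.66 ± 0.30 against untreated (adjusted p = 0.0034) and by 1.33 ± 0.33 against LPS Fth1-low cells (adjusted p = 0.040). Ptger1, at 79.6 to 90.5 CPM as group means, passed in no comparison. The Ptger4 rise in LPS Fth1-low cells missed the threshold when LPS Fth1-low replicate 2 (1.10, 0.088) or untreated replicate 1 (1.03, 0.18) was left out; its rise in LPS Fth1-high cells was lost with library totals as the only scaling (0.074), in DESeq2 (0.051) and without any untreated or LPS Fth1-high library (0.056 to 0.31). The Ptger2 difference between the LPS groups was lost in DESeq2 (0.057), in limma-voom (0.067) and without any library except untreated replicate 1 (0.058 to 0.15).

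Ptgir, the prostacyclin receptor, was at 62.1 and 73.7 CPM in untreated cells, 13.4 and 28.7 CPM in LPS Fth1-low cells and 15.7, 11.4 and 16.4 CPM in LPS Fth1-high cells. Both untreated libraries were above all LPS libraries, and the fall was -1.48 ± 0.31 (adjusted p = 0.033) in LPS Fth1-low and -2.22 ± 0.26 (adjusted p = 2.5e-04) in LPS Fth1-high cells. The first of these was lost in limma-voom (adjusted p = 0.10) and without untreated replicate 1 (0.10), untreated replicate 2 (0.21) or LPS Fth1-low replicate 1 (0.099), and was -2.36 without LPS Fth1-low replicate 2. Ltb4r1, the receptor of the leukotriene B that Lta4h makes, was at 110 and 71.2 CPM in untreated cells, 51.9 and 84.4 CPM in LPS Fth1-low cells and 25.9, 49.3 and 27.0 CPM in LPS Fth1-high cells. It was chosen after its values were seen, and its fall in LPS Fth1-high cells (-1.41 ± 0.33, adjusted p = 0.012) was lost without untreated replicate 1 (-1.06, 0.12).

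The receptors with the largest rises were Fpr1 and Fpr2, formyl peptide receptors of which Fpr2 also binds lipoxin A, and Cmklr1, a receptor of chemerin and resolvin E. Fpr2 was at 33.0 and 25.8 CPM in untreated cells, 189 and 331 CPM in LPS Fth1-low cells and 566, 922 and 556 CPM in LPS Fth1-high cells, with no overlap between the 3 groups. It rose by 3.17 ± 0.37 in LPS Fth1-low (adjusted p = 0.0014) and 4.53 ± 0.38 in LPS Fth1-high cells (adjusted p = 3.8e-05), and Cmklr1 by 1.52 ± 0.26 (adjusted p = 0.011) and 2.93 ± 0.25 (adjusted p = 4.5e-05), both against untreated cells. Between the LPS groups Fpr2 rose by 1.36 ± 0.33 (adjusted p = 0.033) and Cmklr1 by 1.41 ± 0.24 (adjusted p = 0.0070). Fpr1 rose by 4.40 ± 0.83 in LPS Fth1-low (adjusted p = 0.034) and 6.20 ± 0.87 in LPS Fth1-high cells (adjusted p = 0.0020). The Cmklr1 rise in LPS Fth1-low cells was lost without untreated replicate 1 (0.13), untreated replicate 2 (0.053) or LPS Fth1-low replicate 2 (0.059), and that of Fpr1 there in limma-voom (0.078), in a fit of those 2 groups only (0.37) and without any library except LPS Fth1-low replicate 1 and LPS Fth1-high replicate 2 (0.069 to 0.27; 2.39 without LPS Fth1-low replicate 2). The Fpr2 rise between the LPS groups was lost in a fit of those 2 groups only (0.059) and without untreated replicate 1 (0.0505), untreated replicate 2 (0.061), LPS Fth1-high replicate 2 (1.07, 0.086) or LPS Fth1-low replicate 1 (1.02, 0.16).

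For each member past the threshold, the genes with the most similar profile were sought among the 8333 genes that averaged 10 CPM or more, by Pearson's r of log2 CPM over the 7 libraries. These coefficients are descriptions: the libraries fall into 3 groups, so any gene with the same order of group means scores highly. The 3 closest to Ptgs2 were Hat1, Rab3il1 and C3ar1 (r = 0.996, 0.995 and 0.994). Those closest to Ptges were App, Ecm1 and Snx10 (r = 0.996, 0.995 and 0.993), and those closest to Tbxas1 were Src, Rgs1 and Egr2 (each r = 0.992 or 0.991). Bid, Sept9 and Sh3bp5l were closest to Alox5 (r = 0.989, 0.986 and 0.985), and Bloc1s2, Emg1 and Oaz1-ps to Alox5ap (r = 0.997, 0.994 and 0.989). C3ar1, the receptor of complement C3a, had group means of 3.45, 82.4 and 509 CPM in untreated, LPS Fth1-low and LPS Fth1-high cells, and Bid, a pro-apoptotic member of the BCL2 family, 50.6, 30.3 and 24.3 CPM.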

How the data were processed

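The 7 libraries hold paired reads of polyadenylated RNA. The deposited values are raw counts per gene and library. Per the submitters' processing notes, the authors' pipeline named DRAGEN, DESeq2 and the genome build mm10. The sources used here do not give tool versions, the annotation or the strand counted.

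The tests used edgeR 4.0.16 in R 4.3.3, with filterByExpr, TMM scaling and a robust quasi-likelihood fit of all 7 libraries by group (residual df 4). Each of the 3 group differences was tested two-sided. A call is an adjusted p below 0.05 by Benjamini-Hochberg over the 13665 genes tested. Standard errors are log2 changes divided by the root of F, and intervals use the model's degrees of freedom. CPM values use TMM-scaled totals, and correlations used a prior count of 2. Limits from a count of 0 (3 counts) cover counting error only. The procedure was also run on simulated data with planted changes, drawn from a mean profile common to all libraries. The outcome is not given here, and no result rests on it. Alternatives were other scalings and filters, DESeq2 1.42.0, limma-voom (limma 3.58.1) with quality weights, fits of 2 groups only, 31 ribosomal RNA and mitochondrial genes left out, the replicate number as a block, and each library left out in turn.

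The members, lists, tests and alternatives were chosen with earlier results of these data known, and the lists were written from general knowledge. The text names all members and, of each list, up to 4 called genes a comparison ranked by adjusted p, or the 2 genes of highest level where none was called. Ptges2, Ptges3, Ptger1, Ltb4r1 and the called genes named only in the plot of pathway changes lie partly outside this rule, having been chosen after their values were seen. Positions are of GRCm38 with GENCODE vM21, which gave exon lengths for 98.0% of genes tested. Among members, Alox5ap, Ltc4s, Ptgs1 and Tbxas1 overlap a gene on the opposite strand, and Ptges and Tbxas1 a gene model on the same strand. No protein sequences were used here.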

Additional observations from a re-analysis of the deposited data

How the results depend on the processing

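Of 398 recomputed changes of single members, 347 kept their direction and their side of the threshold, 17 gained a call, 12 lost one and 22 changed sign. All 22 sign changes were in changes that were not called. The 5 members called in LPS Fth1-high against untreated cells kept their calls in every alternative, except Alox5ap without untreated replicate 1. Between the LPS groups, the count of members called was 1, and it was 3 in DESeq2, 2 in limma-voom, 2 with the 10 CPM filter, 2 with the replicate block and 0 to 1 with a library left out. The 1 call there was Alox5ap, lower, as long as no LPS Fth1-high library and not LPS Fth1-low replicate 2 was left out. It was Ptgs2, higher, without LPS Fth1-low replicate 2, and Ptges, higher, without LPS Fth1-high replicate 1 or 2. For LPS Fth1-low against untreated cells it was 2, and it was 4 in DESeq2, 1 in limma-voom, 4 with the 10 CPM filter and 0 to 3 with a library left out (Ptgs2 and Ptges, both higher, without LPS Fth1-low replicate 1). Pathway genes called were 11 in DESeq2 against 7 between the LPS groups, and 4 in limma-voom and 1 to 8 with a library left out against 7 in LPS Fth1-low against untreated cells.

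Signs turned as follows. For LPS Fth1-low against untreated cells, Alox5ap (-0.01) was 0.017 with DESeq2 size factors, 0.016 in DESeq2, 0.010 in limma-voom, 0.073 with the 10 CPM filter, 0.034 in the 2-group fit and 0.015 without ribosomal RNA and mitochondrial genes, and ran from -0.17 to 0.19 with a library left out. Ltc4s was -0.046 there with the replicate block, and -0.12 to 0.87 with a library left out. Between the LPS groups Ltc4s was -0.17 and Ptgs1 -0.30 with the replicate block, and with a library left out they ran from -0.22 to 0.75 and from -0.30 to 0.41, and Alox5 from -1.25 to 0.040. For LPS Fth1-high against untreated cells Ltc4s was -0.22 with the replicate block and -0.00050 to 1.25 with a library left out, and Lta4h was -0.034 to 0.21. The cause of these turns was not tested. Ltc4s and Ptgs1 gave no value against LPS Fth1-low cells without LPS Fth1-low replicate 2, where the group has no count of them, and were not tested with the 10 CPM filter.

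The replicate numbers were not treated as pairs in the main fit, since the labels do not say that they mark the same mice. Only the LPS groups could share mice. Deviations of same-numbered libraries had correlations of 0.34 and 0.19 between the LPS groups. Both are positive, and the labels do not say whether these libraries came from the same mice. The correlations were -0.082 between the untreated and LPS Fth1-low groups and -0.30 and -0.17 between untreated and LPS Fth1-high. Those values cannot decide whether the LPS libraries are paired, since untreated and LPS-treated mice are different animals. With the replicate block, all genes called were 560 higher and 768 lower between the LPS groups, 576 and 165 for LPS Fth1-low against untreated cells, and 1619 and 1500 for LPS Fth1-high against untreated cells. Ptges was then called in all 3 comparisons (3.25 between the LPS groups, 3.21 for LPS Fth1-low against untreated cells). Hpgd was not called with the replicate block in LPS Fth1-high against untreated cells (adjusted p = 0.16). Over all genes, DESeq2 called 628 higher and 190 lower and limma-voom 282 and 47 for LPS Fth1-low against untreated cells, against 409 and 86. Between the LPS groups DESeq2 called 634 and 875 and limma-voom 427 and 671, against 503 and 625. With the 10 CPM filter, which left 8342 genes, 566 and 676 were called between the LPS groups. In LPS Fth1-low against untreated cells 418 and 119 were called with that filter. The counts of members and pathway genes called under these settings stand beside these totals. The shallow LPS Fth1-low replicate 1 limits all values of scarce members, since 3 counts there equal 5.02 CPM, and leaving out a library of a pair assumes that the remaining one varies like the other groups.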
